A study of Rattus norvegicus with 30 samples.

Results

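The cytosolic ribosomal proteins are the structural proteins of the ribosome that works outside the mitochondria. In the whole hearts of untreated Fischer 344 rats their mRNAs were carried by 157 rows of each of the 3 deposited tables (27408 rows at 8 weeks, 27383 at 21 weeks and 26553 at 78 weeks). The rows were chosen by name: Rpl or Rps followed by a number, Rplp, Rpsa and Fau, without the Rps6k kinases. They bear 85 gene names. Of these, 45 belong to the large (60S) subunit and 32 to the small (40S) subunit, 77 core genes in all. The other 8 were kept apart: the paralogs Rpl3l, Rpl7l1, Rpl10l, Rpl22l1 and Rpl36al, the binding protein Rps19bp1, which is no ribosomal protein itself, and the pseudogene names Rpl12-ps1 and Rpl37a-ps1. Rpl36a and Rps27l were not analysed here. The study took 5 female and 5 male rats of this inbred strain at 8 weeks (young), 21 weeks (adult) and 78 weeks (old), 30 hearts in 6 groups, and hybridised the total RNA of each heart to 1 Agilent whole-genome array in 1 colour (Cy3). All animals came from 1 breeding colony, ate the same diet and received no treatment. The question the design was made for is the sex difference at each age. Ages were handled in different batches, so that age and batch cannot be told apart in any value below that compares ages.

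A ribosome holds a single copy of nearly every one of these proteins, and a cell makes them in step with the ribosomal RNA. Their mRNAs are among the most abundant of any cell and are known as TOP mRNAs, because transcription starts at a C followed by a run of pyrimidines. Through this run the kinase mTOR and the RNA-binding protein Larp1 control their translation. In heart muscle, growth of the cardiomyocytes is known to raise ribosome production, and striated muscle carries Rpl3l, a muscle form of the large subunit protein Rpl3.

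Within groups the arrays correlated at r = 0.961 to 0.988 over all rows, and 17182 to 24290 of 43379 spots per array were well above background. The 75th percentile of the signal, which sets each array's scale, was 98.0 to 171 at 8 weeks, 39.9 to 123 at 21 weeks and 83.5 to 124 at 78 weeks. The 3 arrays under 80 were all of 21-week males (replicates 2, 4 and 5). In 2 of the 78-week hearts, female replicate 2 and male replicate 3, Y-linked genes sat at the level of the other sex, so that the counts of calls and the sex differences at 78 weeks are given with and without both. All 9 cardiomyocyte markers examined (among them Myh6, Tnnt2 and Tnni3) were well above background on all 30 arrays. In whole tissue, fewer cells of a type and less RNA per cell cannot be told apart. The labels give replicate numbers only. That these are separate rats, 5 of each sex at each age, comes from the study's methods. Every p-value below measures the spread between these hearts. Their number, 5 a group, limits the precision.

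The start of transcription is the feature that the gene names did not use. Of the 85 names, 66 matched a promoter of the RefSeq annotation (build GRCr8), with 67 entries. The motif searched was a C at the annotated start followed by at least 4 bases that are each C or T, on the transcript's strand only. It stood at 24 of 63 start sites of core genes (38.1%) and at 881 of 33469 start sites of the whole table (2.63%). It was found at 17 of 37 large subunit starts (45.9%), at 7 of 26 small subunit starts (26.9%), and at none of the 4 starts of the names kept apart. With the tract allowed to begin within 3 bases of the annotated start, the shares were 60.3% for core genes and 11.2% for all promoters, and the order of the subunits turned, with 59.5% of large and 61.5% of small subunit starts. A match is a description of the letters, and a missing match says only that these letters are not at this annotated position.

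The windows below run from 10 bases before the start to 20 bases from it (GRCr8, 5′ to 3′ on the gene's strand), with the tract in capitals. The first 5 are large or small subunit genes whose values are given further on. The other 3 are the pair Rpl3 and Rpl3l and the paralog Rpl22l1, which hold no tract at the annotated start, beside Rpl22, which does.
Rplp1, chr8:71290853-71290882, minus strand: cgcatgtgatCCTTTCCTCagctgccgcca
Rps7, chr6:50999426-50999455, minus strand: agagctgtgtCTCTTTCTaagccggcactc
Rpl10, chrX:157205840-157205869, plus strand: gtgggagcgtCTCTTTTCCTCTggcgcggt
Rps26, chr7:1643385-1643414, minus strand: ccgccgggtcCTCTTTCgagtcttggctcc
Rpl22, chr5:168117951-168117980, plus strand: gcgcccccctCCCTTTCTgcctcctctgcc
Rpl22l1, chr2:113683186-113683215, plus strand: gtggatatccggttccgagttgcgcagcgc
Rpl3, chr7:113507971-113508000, minus strand: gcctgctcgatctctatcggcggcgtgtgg
Rpl3l, chr10:14258436-14258465, plus strand: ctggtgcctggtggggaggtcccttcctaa

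Levels are given on a rebuilt log2 scale: the logarithm of the processed signal minus that of the array's own 75th percentile, so that 0 is the 75th percentile of the array. A gene is represented by its row of highest mean level over the 30 arrays, since 46 genes had more than 1 row (up to 8, for Rpl7a) and 39 had 1. Ribosomal protein mRNAs gave a strong signal in every heart. The median core gene stood at 7.23, against -1.64 for the median of all rows, and 76 of 77 core genes were above 0, 69 of them above 5. The large subunit median was 7.23 and the small subunit median 7.17. Of the 157 rows, 151 were well above background on all 30 arrays. Probes differ in how well they bind, so the order of signals between genes is not an order of mRNA amounts. The brightest signals were those of Rplp1, a protein of the ribosomal stalk, at 9.25, of Rps6, the target of the S6 kinases, and of Rps16. Among core genes the dimmest was Rps26, at -1.20, which was well above background on 29 of 30 arrays. Rpl7l1 and Rpl10l were the dimmest after it. The scanner was saturated at Rplp1 on 29 arrays, at Rps23 on 26 and at Rps6 on 19, so that differences of these 3 are bounded by the scanner and no fold is given for them.

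The mean over the 65 core genes with a value on all arrays (39 large, 26 small) gave 1 level per heart. It was 6.80 (SD 0.087, n = 10) at 8 weeks, with a range of 6.67 to 6.91. It was 7.25 (SD 0.33, n = 10) at 21 weeks, with a range of 6.95 to 7.87. At 78 weeks it was 6.83 (SD 0.056, n = 10), with a range of 6.74 to 6.91. On the 75th percentile scale all 10 hearts of 21 weeks thus lay above the highest heart of 8 weeks and above the highest of 78 weeks, while 8 and 78 weeks overlapped. The 5 adult females were at 6.95, 7.14, 7.15, 7.08 and 7.27, and the 5 adult males at 6.95, 7.82, 7.08, 7.23 and 7.87. Spread within the adult males (SD 0.43) was wider than in any other group, where it was 0.052 to 0.11. The array signal moved with these values: the 3 weak arrays of adult males held 3 of the 4 highest means, at 7.82 (75th percentile signal 39.9), 7.23 (65.6) and 7.87 (72.1). Array signals were 82.7 to 123 in adult females and 83.5 to 124 at 78 weeks. The part of array signal in the age differences was not tested further than by leaving out the 3 weak arrays. The separation of the ages was lost under quantile normalization. There male replicate 1 of 21 weeks was at 13.652, and the highest hearts of 8 and 78 weeks were at 13.724 and 13.685. With a model-based background correction (normexp) the same adult male was at 6.370, below the highest 8-week heart at 6.377.

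**Figure D1:**
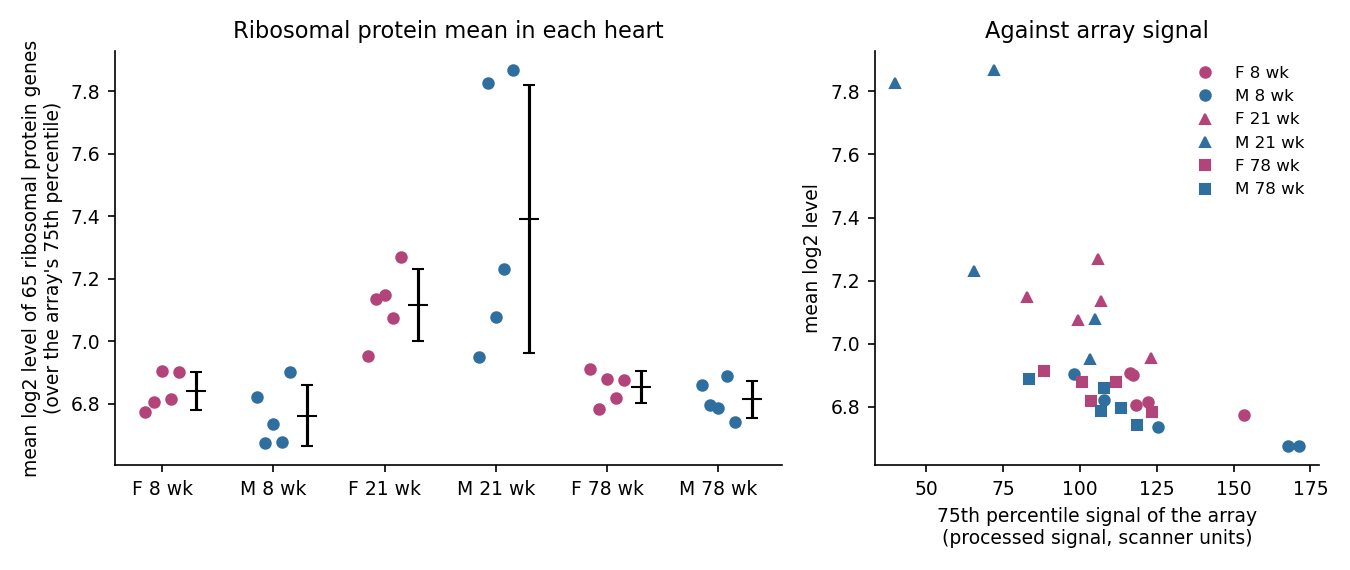
Mean log2 level of 65 ribosomal protein genes in each of 30 hearts, by sex and age (left; points are hearts, bars the mean and SD of 5), and the same means against the 75th percentile signal of the array (right; scanner units). The 21-week hearts lie between 6.95 and 7.87, above all hearts of the other ages on this scale, and the 2 highest are males on arrays with signals of 39.9 and 72.1.

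Both subunits moved together. The large subunit mean minus the small subunit mean was 0.0005 (SD 0.038) at 8 weeks, -0.062 (SD 0.035) at 21 weeks and -0.022 (SD 0.035) at 78 weeks, each over 10 hearts. The ranges of the 3 ages overlapped, from -0.049 to 0.081 at 8 weeks, from -0.13 to -0.0049 at 21 weeks and from -0.088 to 0.046 at 78 weeks. Across the 10 hearts of an age, with the sex means removed, the large and small subunit means correlated at r = 0.95, 1.00 and 0.81 at 8, 21 and 78 weeks. The points share the array's scale.

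Single genes also varied together from heart to heart. At 8 weeks the median correlation over all pairs of 68 core genes was 0.48 across 10 hearts with sex means removed, against 0.02 for pairs among all rows. It was 0.92 at 21 weeks (67 genes, all rows 0.03) and 0.39 at 78 weeks (70 genes, all rows 0.01). The share of pairs above 0 was 79.1%, 99.95% and 73.5%. Pairs within the large subunit (0.45, 0.92 and 0.37), within the small subunit (0.52, 0.93 and 0.41) and between subunits (0.48, 0.93 and 0.40) gave much the same medians. Over the 7 adult hearts without the weak arrays the median was 0.70. These genes share bright signals as well as function, and quantile normalization, which forces the same distribution on every array, left medians of 0.028, 0.49 and 0.27.

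Rpl13, Rps16 and Rps18 followed the mean of the other members most closely. Their correlations with it were 0.96, 0.99 and 0.84 for Rpl13, 0.87, 0.99 and 0.90 for Rps16, and 0.85, 0.99 and 0.89 for Rps18 at 8, 21 and 78 weeks, over at most 10 hearts each. The dim Rps26 (0.32, 0.31 and -0.49) and Rpl10l (0.03, 0.33 and 0.05) followed it least, together with Rpl4, which joins the tunnel wall of the large subunit (0.01, 0.87 and -0.46). Rpl3, a core protein near the catalytic centre, gave -0.52, 0.96 and 0.02. A high value at 21 weeks was common to most genes. The member mean, with sex means removed, had an SD of 0.29 at that age and of 0.099 without the 3 weak arrays. Values of single genes without these arrays were not computed.

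**Figure D2:**
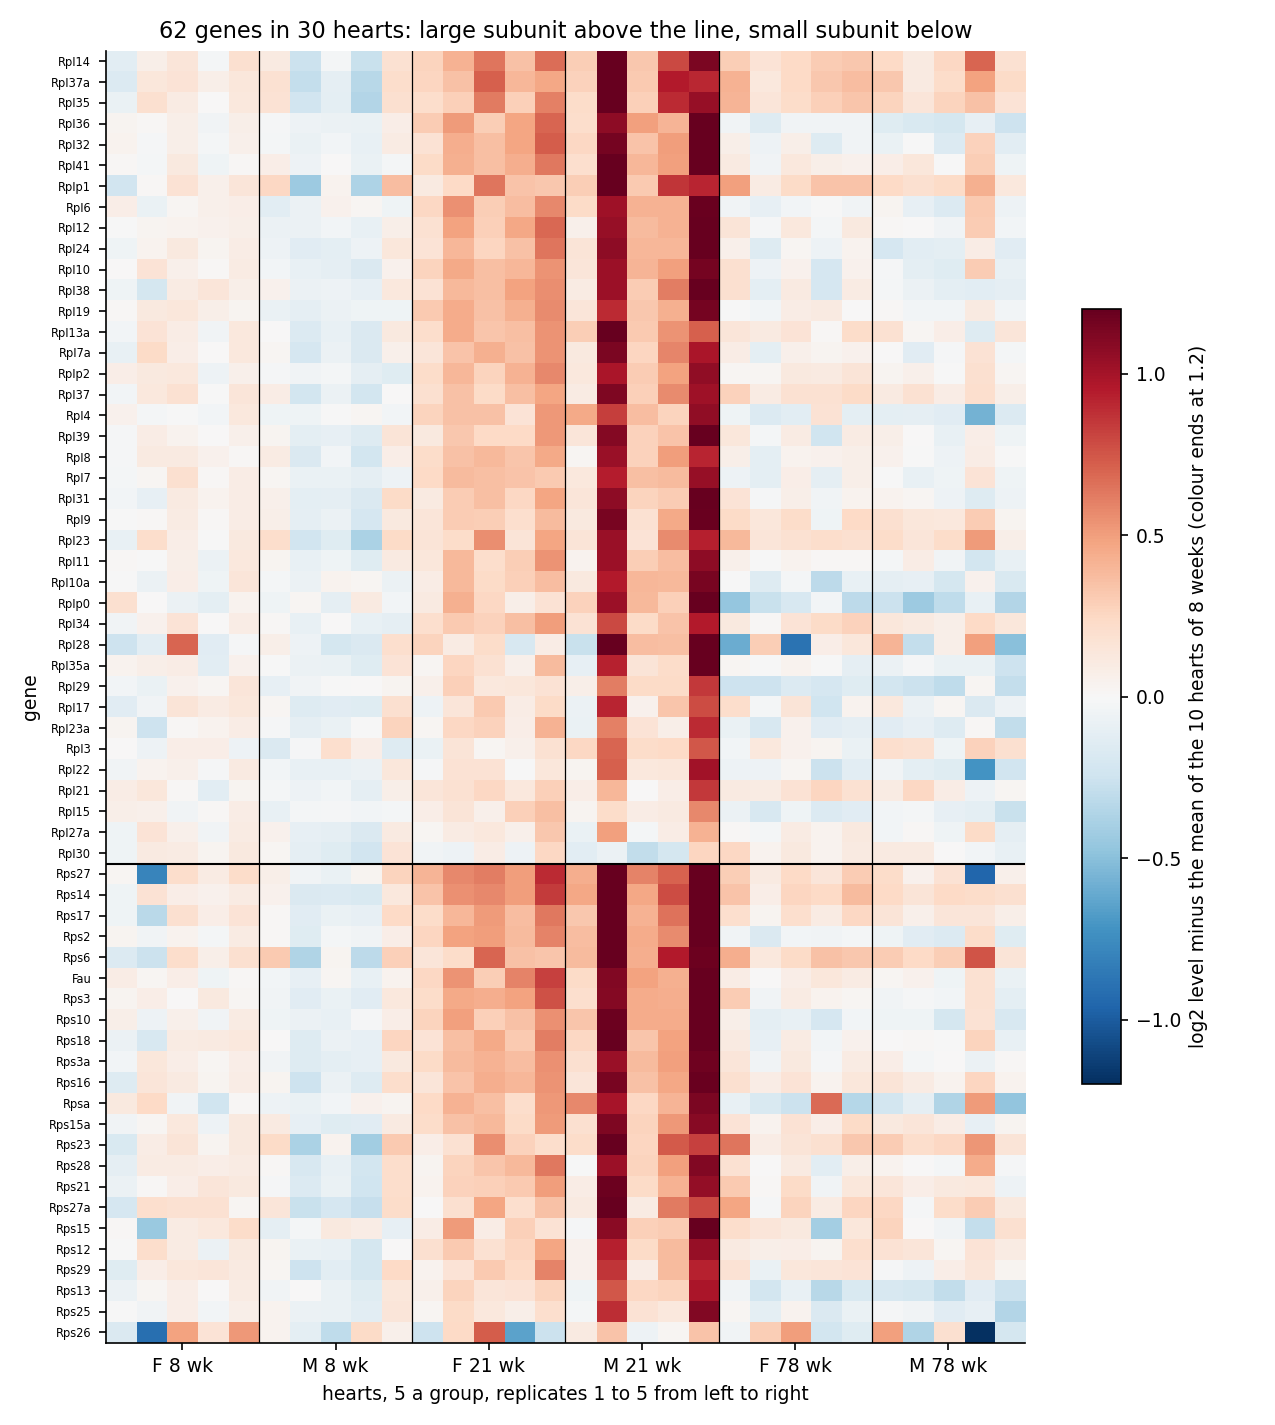
Log2 level of 62 genes (rows; 39 large subunit genes above the line, 23 small subunit genes below it) in 30 hearts (columns, 5 a group), each minus the gene's mean over the 10 hearts of 8 weeks; colours end at 1.2. Nearly all genes of both subunits are red at 21 weeks, most strongly in male replicates 2 and 5, and Rps26, Rpl28 and Rpl30 depart from the common pattern.

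From 8 to 21 weeks the ribosomal protein genes of both subunits rose together. With 1 row a gene, 79 of 85 rose and none fell in limma's test (adjusted p under 0.05 over all rows). Over all rows of the arrays 49.3% passed in this comparison, 29.6% higher and 19.8% lower, and of the 157 member rows 131 rose and 1, a row of Rpl30, fell. The median difference was 0.46 on the log2 scale, against 0.14 for all rows. Among large subunit rows 73 of 87 rose (median 0.45), among small subunit rows 46 of 56 (median 0.46) and among rows of the names kept apart 12 of 14 (median 0.51). All 10 adult hearts lay above all 10 young hearts in 36 of 143 member rows with full values (25.2%), against 4.83% of all rows in this direction. The size depended on the arrays, the scaling and the background treatment. Under quantile normalization 65 rows rose and 6 fell (median 0.14, all rows 0.057), where 43.9% of all rows passed. Without the 3 weak arrays 88 rows rose and 3 fell (median 0.25), where 33.2% of all rows passed. In females alone 12 rose (median 0.30, all rows 12.7%), and in males alone 133 (median 0.63, all rows 46.0%). With a model-based background correction (normexp) 21 rose, where 15.7% of all rows passed. The median was then 0.087, below the 0.22 of all rows. Under normexp the member mean of male replicate 2 at 21 weeks was 4.49, with a group median of 6.40. That of female replicate 1 at 78 weeks was 4.12, with a group median of 6.28. Normexp was not run without these arrays, so every normexp value of these ages includes them.

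**Figure D3:**
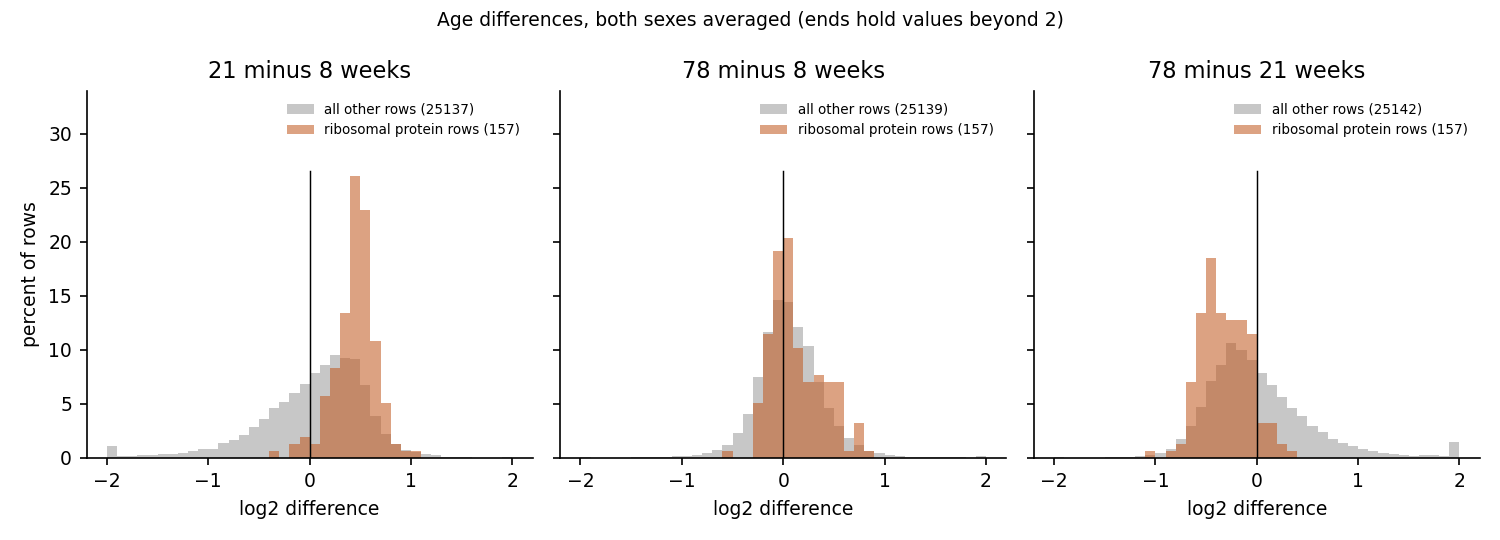
Distribution of log2 differences between ages, both sexes averaged, for the 157 ribosomal protein rows (orange) and all other rows (grey), as percent of rows in bins. The ribosomal protein rows are shifted up in 21 minus 8 weeks (median 0.46), centred near 0 with a shoulder to the right in 78 minus 8 weeks (median 0.065), and shifted down in 78 minus 21 weeks (median -0.33).

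Among the largest rises were those of the small subunit genes Rps7, Rps27 and Rps14, and of Rpl22l1 (0.68) and Rpl37a-ps1 (0.66). Rps14, which sits on the platform of the small subunit, was at 7.38, 7.62 and 7.75 (lowest, median and highest of 10 hearts) at 8 weeks and at 7.92, 8.13 and 9.26 at 21 weeks. The groups did not overlap, and the difference was 0.76 (SE 0.11, adjusted p = 7.37e-06 in limma), a fold of 1.69. Rps27, a zinc finger protein of the small subunit, was at 6.39, 7.24 and 7.46 and then at 7.60, 7.79 and 8.71 (0.77, SE 0.15, adjusted p = 0.000205). Rps7 showed the largest rise, 0.98 (SE 0.17, adjusted p = 0.0011), but its brightest row had values on 3 hearts at each of these ages, because the other spots carried outlier flags. With those spots kept the rise was 0.50 (adjusted p = 0.00032). The difference of Rps14 was 0.51 without the 3 weak arrays and 0.29 under quantile normalization. With normexp the calls of Rps14 (0.35, adjusted p = 0.24), Rps27 (0.33, adjusted p = 0.36) and Rps7 (0.52, adjusted p = 0.47) were lost, and that of Rps7 was also lost under quantile normalization (0.37, adjusted p = 0.051).

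Fau, which encodes a ubiquitin-like protein fused to a small subunit protein, was at 6.40, 6.51 and 6.58 at 8 weeks and at 6.72, 7.004 and 7.74 at 21 weeks, with no overlap (0.60, SE 0.098, adjusted p = 2.45e-05). Rpsa, also known as a laminin receptor, rose by 0.51 (SE 0.13, adjusted p = 0.0021), and Rps4x, the X-linked form of Rps4, by 0.46. Rps25 rose by 0.29. Among the stalk proteins, Rplp2 rose from 7.72, 7.84 and 7.99 to 7.99, 8.27 and 8.93, by 0.48, and Rplp0 rose by 0.42. Of the large subunit, Rpl36 (0.59), Rpl32 (0.57), Rpl38 (0.52), Rpl13a (0.50), Rpl7 (0.45) and Rpl39 (0.45) all passed the test. Rpl3 (0.25) and Rpl22 (0.25) rose less. Without the 3 weak arrays Rpl3 (0.15), Rpl22 (0.086), Rps25 (0.10), Rpl36al (0.12) and Rpl10l (0.29) no longer passed, and the call of Rpl22 was also lost when any of 13 single arrays of these ages was left out (adjusted p up to 0.096).

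Of the 6 genes that did not pass, Rpl28 differed by 0.37 (adjusted p = 0.11), Rps19bp1 by 0.26 (adjusted p = 0.063) and Rps24 by 0.19 (adjusted p = 0.13). Rpl27a differed by 0.15 (adjusted p = 0.075), Rps26 by 0.06 (adjusted p = 0.84) and Rpl30 by -0.03 (adjusted p = 0.76). Rpl30 stood at 6.60, 6.85 and 6.99 at 8 weeks, at 6.53, 6.77 and 7.08 at 21 weeks and at 6.74, 6.90 and 7.07 at 78 weeks. The 3 ages of this gene overlapped throughout. The other rows of Rpl30, a small RNA-binding protein of the large subunit, differed by -0.12 (adjusted p = 0.15) and by -0.20 (adjusted p = 0.027) from 8 to 21 weeks, so that none of its 3 rows was higher in the adult hearts.

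Genes with and without a pyrimidine tract at the annotated start gave similar values. Among the 24 genes with the tract 22 rose from 8 to 21 weeks, with a median of 0.46, and among the 38 others with a promoter entry 36 rose, with a median of 0.48.

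From 21 to 78 weeks most ribosomal protein genes fell. This comparison shares the 21-week hearts with the one before, so they are not independent. With 1 row a gene 70 of 85 fell and none rose, 38 of 45 large and 26 of 32 small subunit genes, and of all 157 rows 89 fell. Over all rows 43.5% passed, 19.5% higher and 24% lower. The members' median was -0.33, against -0.08 for all rows. All 10 old hearts lay below all 10 adult hearts in 19 of 144 member rows (13.2%), against 2.19% of all rows in this direction. Without the 3 weak arrays 66 rows fell and 13 rose (median -0.15), where 35.1% of all rows passed. In females alone 25 fell (15.2% of all rows passed), and with the normexp correction 2 fell (5.64% of all rows passed). Without the 2 hearts at odds with their sex label 87 fell, where 40.9% of all rows passed.

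Rpl36, a large subunit protein, went from 6.94, 7.21 and 8.12 at 21 weeks to 6.48, 6.60 and 6.68 at 78 weeks, without overlap (-0.71, SE 0.10, adjusted p = 2.92e-06). Rplp0, the anchor of the stalk, went from 2.97, 3.18 and 4.11 to 2.44, 2.61 and 2.87 (-0.69, SE 0.099, adjusted p = 3.65e-06). For both genes every old heart was below every adult heart. Rps27 fell by 0.71. The fall of Rps7, by 1.07 (SE 0.14, adjusted p = 0.000173), again rested on few hearts (3 at 21 weeks and 7 at 78 weeks). The 15 genes that did not pass included Rpl3, Rpl23, Rpl21, Rpl28, Rpl30, Rps24, Rps26 and Rps27a, the last of which carries a ubiquitin in front of its ribosomal part, and the saturated Rplp1, Rps6 and Rps23.

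Between 8 and 78 weeks few ribosomal protein genes passed the test. With 1 row a gene, 1 rose and 2 fell, of which 1 of each is described below. Over all rows 14.8% passed, 7.89% higher and 6.86% lower, and of the 157 member rows 24 rose and 3 fell, with a median of 0.065 beside 0.044 for all rows. Without the 2 hearts at odds with their sex label 19 rows rose and 1 fell, where 12.0% of all rows passed. The median took the opposite sign, -0.25, under the normexp correction, which includes the low female replicate 1 of 78 weeks (normexp mean 4.12). Rpl10l, the paralog of Rpl10 that is best known from testis, was at 0.95, 1.38 and 1.71 at 8 weeks, at 1.17, 1.74 and 2.23 at 21 weeks and at 0.34, 0.74 and 1.54 at 78 weeks. The old hearts were the lowest but overlapped the young ones (-0.54, SE 0.14, adjusted p = 0.00855). Its difference was -0.50 (adjusted p = 0.026) without the 2 hearts at odds with their label, and -0.81 (adjusted p = 0.46) within the 1 slide that held 2 hearts of each of these ages. The pseudogene row Rpl12-ps1 rose from 0.92, 1.13 and 1.25 to 1.41, 1.65 and 1.76, with no overlap between young and old (0.52, SE 0.11, adjusted p = 0.00111). That call was lost with normexp (0.26, adjusted p = 0.14) and within the slide of both ages (0.46, adjusted p = 0.54). RNA of its parent Rpl12 could bind the same probes, so the source of this signal is uncertain. Rpl7a was the only gene with rows called in both directions.

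The 24 rows that rose from 8 to 78 weeks were nearly all of one kind. Besides probes that read the gene's own strand (forward, 108 rows), the arrays carry probes whose sequence is the complement of the mRNA (reverse, 37 rows of 34 genes). A further 12 rows could not be placed. Probes annotated to a RefSeq mRNA were taken as forward. The others were placed against those of the same gene. This used at least 15 shared bases, direct or complementary, or else the strand within 20000 bases. A row of placed and unplaced probes took the orientation of the placed ones. All 392 probes placed both ways were placed the same. Probes that share bases at one place largely have to agree, so this does not check the forward class. The rule was made after the values of these rows had been seen, so no test is given. Of the 24 rows, 20 were reverse, 1 was forward and 3 were not placed. All 10 old hearts lay above all 10 young hearts in 11 of 144 member rows (7.64%), against 1.31% of all rows in this direction.

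The pair below shows what the rows read, with the bases that are complementary between forward and reverse probe in capitals (rn3 coordinates as in the scanner files). For Rps25 the whole probes are complements.
Rps25 forward, chr8:47383870-47383929, plus strand: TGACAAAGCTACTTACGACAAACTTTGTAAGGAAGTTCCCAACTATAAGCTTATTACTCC
Rps25 reverse, chr8:47383870-47383929, minus strand: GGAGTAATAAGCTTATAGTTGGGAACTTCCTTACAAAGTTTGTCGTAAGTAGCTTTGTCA

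The Rps25 row of the forward probe was at 5.60, 5.71 and 5.87 at 8 weeks and at 5.37, 5.63 and 5.76 at 78 weeks, a difference of -0.09 (adjusted p = 0.59). The row of the reverse probe, which averages it with a second probe, was at 2.62, 2.89 and 3.21 at 8 weeks and at 3.19, 3.39 and 3.50 at 78 weeks, a difference of 0.46 (SE 0.117, adjusted p = 0.00778). The reverse signal was higher in the old hearts and the forward signal was not.

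Over all members, the median difference from 8 to 78 weeks was 0.01 for forward rows and 0.45 for reverse rows. All 37 reverse rows were positive, and all 37 were more positive than the brightest forward row of their gene, by a median of 0.45. The reverse rows were dimmer than that forward row in 37 of 37 pairs, with a median level of -0.74. Their mean per heart was at -0.97, -0.65 and -0.44 (lowest, median and highest) at 8 weeks and at -0.44, -0.22 and -0.09 at 78 weeks, where the lowest old heart (-0.437) lay just above the highest young heart (-0.440). At 21 weeks it was at -0.75, -0.26 and 0.94. Beyond the ribosomal proteins, 13.0% of the other 1969 reverse rows rose (median 0.27), against 6.62% of the other 15591 forward rows (median -0.01). These 2 classes also differed in brightness, with median levels of -4.58 for the other reverse rows and -0.88 for the other forward rows. From 8 to 21 weeks 94 of 108 forward rows (median 0.44) and 29 of 37 reverse rows (median 0.54) rose. From 21 to 78 weeks 83 forward rows fell (median -0.43), and 2 reverse rows did (median -0.09). These values moved with the settings. From 8 to 21 weeks the forward median was 0.06 under quantile normalization, with 27 rows higher and 6 lower, against 0.57 for reverse rows. With normexp 2 forward rows rose (median 0.03). The medians of forward rows outside the ribosomal proteins were 0.08 and 0.17 in these settings, both above those of the members. Over all rows 43.9% and 15.7% passed. Without the 3 weak arrays 16 reverse rows rose (median 0.27) from 8 to 21 weeks, where 33.2% of all rows passed. From 21 to 78 weeks 9 then rose and none fell (median 0.20, 33 of 37 positive), where 35.1% of all rows passed. Without male replicate 2 of 21 weeks alone the reverse median from 21 to 78 weeks was 0.01. The median of the reverse rows from 8 to 78 weeks kept its sign under quantile normalization (0.42), with normexp (0.29), without the 2 hearts at odds with their label (0.44) and within the slide that held both ages (0.34, with 33 of 37 positive and none past the test). These rows lie much nearer the background than the forward rows, the part of which was not tested, and age and batch cannot be told apart here either.

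**Figure D4:**
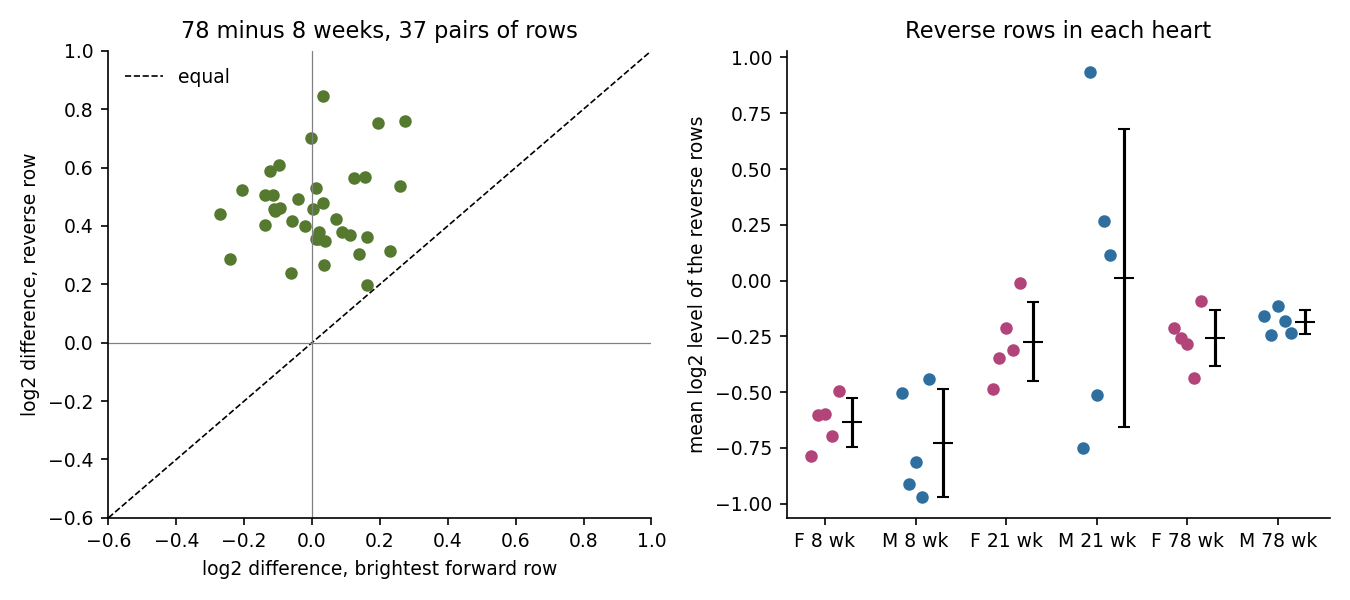
Log2 difference from 8 to 78 weeks of 37 reverse rows against the brightest forward row of the same gene (left; the dashed line marks equal differences), and the mean log2 level of the 37 reverse rows in each heart (right; bars are the mean and SD of 5). All 37 pairs lie above the dashed line, and the 10 old hearts lie between -0.44 and -0.09.

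No ribosomal protein row passed the test of a difference between females and males at any age. These comparisons use the authors' table values, which lie about 0.7 log2 units below the rebuilt ones. At 8 weeks 0 of 157 rows passed limma's adjusted p of 0.05, where 0.102% of all rows did. Unadjusted, 5 member rows were under 0.05, against 1573 of 27408 rows (5.74%). The methods' two-group test gave 17, against 1780 of 27408 rows. The median female minus male difference was 0.06 (all rows -0.004), and 136 of 157 rows were positive. At 21 weeks 0 passed (all rows 0.0511%), 7 were under 0.05 unadjusted (all rows 4345 of 27383, 15.9%), and the median was -0.28 (all rows -0.14) with 149 negative. The adult sign turned with the settings: without the 3 weak arrays of males the median was 0.13, and it was 0.30 with normexp. The normexp value includes male replicate 2, whose normexp member mean was 4.49 against a group median of 6.40. At 78 weeks 0 passed (all rows 0%), 1 was under 0.05 unadjusted (all rows 1501 of 26553, 5.65%), and the median was -0.007. Without the 2 hearts at odds with their label 0 members passed, where 0.0339% of all rows did, and the median was 0.007.

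How large a sex difference could have gone unseen is given by the intervals. With 1 row a gene, the 95% interval had a median half-width of 0.17 on the log2 scale at 8 weeks, 0.45 at 21 weeks and 0.21 at 78 weeks. It lay wholly within 1 log2 unit of 0 for 85, 81 and 84 of the 85 genes, and within 0.5 for 82, 6 and 80. The adult comparison had the widest intervals of the 3.

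The smallest p at 8 weeks was that of Rpl10l. Females were at 0.95, 1.00, 0.71, 0.63 and 0.91 and males at 0.42, 0.81, 0.27, 0.33 and 0.68 in the table values, a difference of 0.34 (SE 0.13, adjusted p = 0.79 in limma). The sexes overlapped. Rpl19 and Rpl10 were also among the smallest, with differences of 0.13 each (adjusted p = 0.83 and 0.89). At 21 weeks the smallest p was that of Rpl22l1. Females were at 1.33, 1.67, 1.47, 1.27 and 1.41 and the males of that age, in the order of the table and with no replicate number, at 1.68, 2.65, 1.67, 1.71 and 2.75 (-0.66, SE 0.25, adjusted p = 0.28). Without the weak arrays the difference was -0.22. Rpl3 followed, with females at 2.35, 2.60, 2.46, 2.51 and 2.60 and males at 2.71, 3.14, 2.69, 2.72 and 3.15 (-0.38, SE 0.14, adjusted p = 0.28). All 5 males were above all 5 females. The difference was -0.17 without the weak arrays and 0.19 with normexp. Rplp0 differed by -0.45 (adjusted p = 0.31), and Rps6 was saturated on many arrays.

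At 78 weeks Rpl3 had the smallest p among the members' main rows, with females at 2.30, 2.49, 2.40, 2.36 and 2.28 and males at 2.57, 2.56, 2.33, 2.60 and 2.58 (-0.16, SE 0.090, adjusted p = 0.86). The 1 male within the female range was replicate 3 and the highest female was replicate 2, the 2 hearts at odds with their label. Without both the difference was -0.24 (adjusted p = 0.56). Rpl10l (0.29), Rpl37a-ps1 (0.15) and Rps27 (0.29) had adjusted p of 0.86 each.

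No member's sex difference changed with age past the test. In the fit with all 30 arrays 0 of 157 rows passed the interaction of sex and age, where 0.00395% of all rows did, and 12 were under an unadjusted p of 0.05 (all rows 3112 of 25293, 12.3%). The smallest p of a gene's main row was that of Rpl26, whose female minus male difference was lower by 0.68 at 21 than at 8 weeks (adjusted p = 0.26). That row had values on 22 arrays only, with 3 males at 21 weeks and 3 females and 2 males at 78 weeks. Rpl22l1 (adjusted p = 0.32) and Rps7 (adjusted p = 0.37) followed, and Rps7 had values on 3 hearts at 8 weeks and 3 at 21 weeks. The study did not test ages or this interaction, because of its batches.

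Paralog pairs were read side by side, each gene against itself. Rpl3l, the muscle form, was at 8.52, 8.90 and 9.09 at 8 weeks, at 9.03, 9.21 and 10.06 at 21 weeks and at 8.41, 8.76 and 9.14 at 78 weeks. The scanner was saturated at it on 2 arrays of each sex at 8 weeks, on 3 of the adult females and on none at 78 weeks, so that its differences are bounded by the scanner and no fold is given. Rpl3 was at 2.97, 3.14 and 3.35, then at 3.06, 3.34 and 3.89, and then at 3.07, 3.23 and 3.42, a rise of 0.25 (SE 0.073, adjusted p = 0.00657) and then a difference of -0.16 that did not pass (adjusted p = 0.082). Whether the 2 genes differed in their change was not tested.

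Rpl22, which is dispensable for translation in many cells, was at 5.02, 5.08 and 5.24 at 8 weeks, at 5.09, 5.24 and 6.11 at 21 weeks and at 4.39, 4.99 and 5.13 at 78 weeks. It rose by 0.25 (SE 0.10, adjusted p = 0.0421) and fell by 0.42. Rpl22l1, which can take its place in the ribosome, was at 1.61, 1.79 and 1.96, then at 1.97, 2.35 and 3.49, and then at 1.47, 1.84 and 1.99. It rose by 0.68 (SE 0.12, adjusted p = 6.11e-05; 0.46 without the weak arrays) and fell by 0.65. The rise did not pass in females alone (0.32, adjusted p = 0.22) or with normexp (0.29, adjusted p = 0.21). All adult hearts were above all young ones in Rpl22l1, which holds no pyrimidine tract at its annotated start, and the ages overlapped in Rpl22, which does. Rpl10, the partner of Rpl10l, was at 6.82, 7.005 and 7.15, then at 7.14, 7.42 and 8.14, and then at 6.79, 6.96 and 7.30. Unlike Rpl10l it did not pass from 8 to 78 weeks (difference -0.0017, adjusted p = 0.99).

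**Figure D5:**
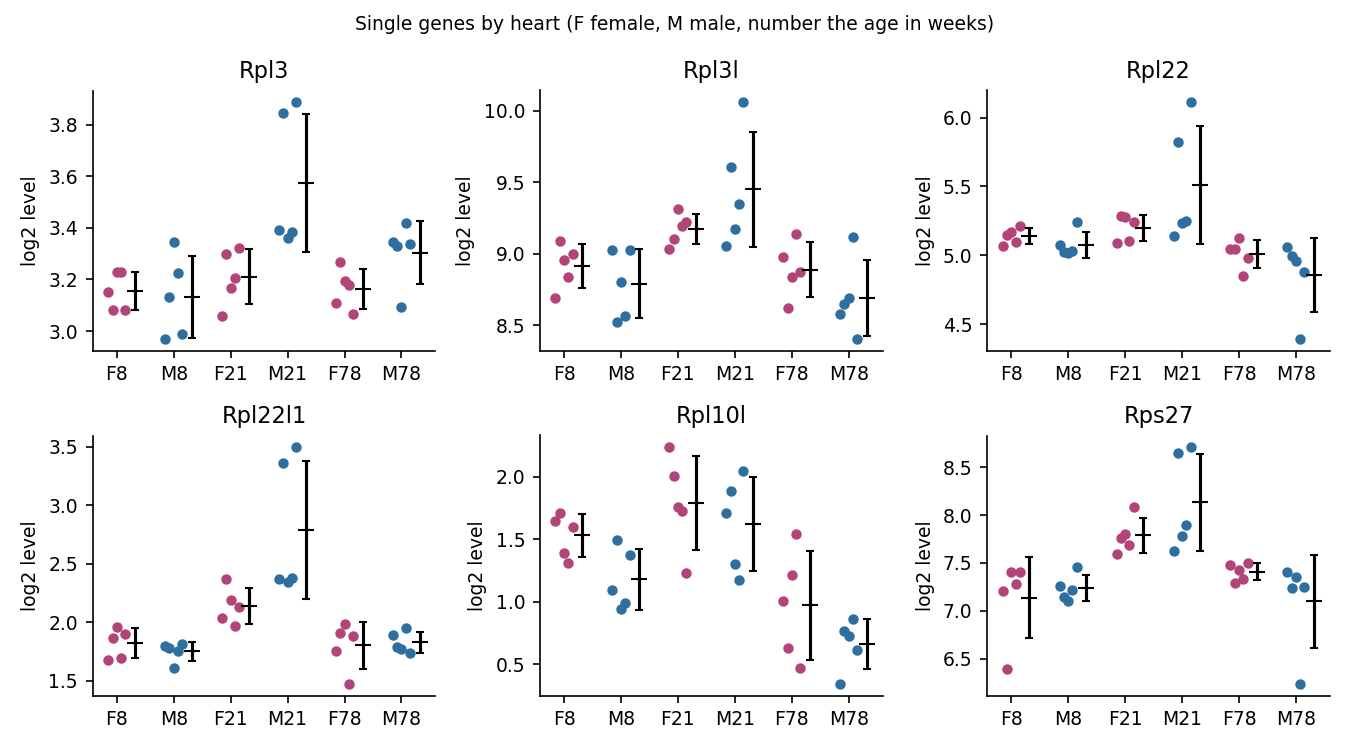
Log2 level of Rpl3, Rpl3l, Rpl22, Rpl22l1, Rpl10l and Rps27 in each heart (points), with mean and SD of the 5 hearts of a group (bars); each panel has its own axis. Male replicates 2 and 5 at 21 weeks stand highest in Rpl22l1 (up to 3.49), and single hearts stand low in Rps27 (6.39 and 6.24) and Rpl22 (4.39).

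Genes that make or regulate ribosomes were read from lists. Of 44 rows of ribosome biogenesis genes, which process ribosomal RNA and assemble the subunits, 22 rose and 1 fell from 8 to 21 weeks (median 0.23), and of 45 rows 1 rose and 19 fell from 21 to 78 weeks. These and the counts of the next lists stand beside 29.6% of all rows higher and 19.8% lower in the first comparison, and 19.5% higher and 24% lower in the second. Bysl, needed for the small subunit, rose by 0.56 (SE 0.072, adjusted p = 1.11e-06) and then fell by 0.65. Nhp2, of the pseudouridylation complex, rose by 0.49 and fell by 0.67, and Npm1 rose by 0.29 and fell by 0.29. Ubtf, which activates the ribosomal RNA genes, fell by 0.29 from 8 to 21 weeks.

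Of 60 rows of translation factors and other genes of the TOP class, 32 rose and 6 fell from 8 to 21 weeks (median 0.28), and 2 rose and 23 fell from 21 to 78 weeks. Eef1a1, the factor that brings tRNA to the ribosome, rose by 0.88 (SE 0.10, adjusted p = 3.45e-07) and fell by 0.91. Eef2 rose by 0.28 and fell by 0.37. Pabpc1, the poly(A)-binding protein, fell by 0.24 from 8 to 21 weeks. Of these 3 lists this was the only one with rows that passed between the sexes, 2 at 8 weeks, among them Eif2s3x, an X-linked initiation factor, which was higher in females by 0.79 (SE 0.074, adjusted p = 0.00448).

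Of 26 rows of the mTOR and S6 kinase pathway 9 rose and 4 fell from 8 to 21 weeks (median 0.10, below the 0.14 of all rows), and 4 rose and 9 fell from 21 to 78 weeks. The list also named Pdk1, a pyruvate dehydrogenase kinase in the study's annotation, so its counts may not be of that pathway alone. Larp1 fell by 0.53 and then rose by 0.50, and Mtor fell by 0.41 and then rose by 0.25. Akt1 rose by 0.51 and then fell by 0.63, and the translational repressor Eif4ebp1 rose by 0.31 and then fell by 0.46. From 8 to 78 weeks 2 rows rose and 1 fell in biogenesis (6.67% called), and 6 rose and 3 fell among TOP factors (15%). In the mTOR list 1 rose and 1 fell (7.69%). Over all rows 14.8% passed in this comparison, so the TOP factors stood near that share.

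Marker genes of cell types moved beside the age differences. Over all rows 29.6% rose and 19.8% fell from 8 to 21 weeks, and the rises of leukocyte rows (38.5% higher) lay near the first share. In this comparison 12 of 20 cardiomyocyte rows rose and 6 fell, 5 of 13 leukocyte rows rose, 4 of 7 endothelial rows fell, and 3 of 11 fibroblast rows rose and 6 fell. The summed level of 8 cardiomyocyte genes (linear, over the array's 75th percentile) was 2571 to 3771 at 8 weeks in both sexes, 3415 to 4849 in adult females, 3924 to 8835 in adult males and 3312 to 4472 at 78 weeks. That of 8 leukocyte genes was 83.2 to 99.8 at 8 weeks and 109 to 223 at 21 weeks, and 79.7 to 137 at 78 weeks. That of 5 endothelial genes was 1.85 to 2.52 at 8 weeks and 1.38 to 1.76 at 21 weeks. That of 5 fibroblast genes was 193 to 228 at 8 weeks and 149 to 199 at 21 weeks. Of the smaller lists, 3 of 4 erythroid rows rose, 3 of 5 cell division rows fell, 1 of 5 smooth muscle rows rose and 1 fell, and 1 of 7 skeletal muscle rows rose. All cardiomyocyte, endothelial and fibroblast markers measured were well above background on all arrays, and of the 8 leukocyte markers 4 to 6 were, depending on the group. The part of cell types in the ribosomal protein differences was not tested.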

How the data were processed

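Signals of 30 arrays (45018 spots) were extracted with Agilent Feature Extraction 9.5.1.1. The authors averaged probes by gene, removed genes not expressed, and deposited intensity values scaled to each array's 75th percentile. Sex comparisons used log2 of these. Levels, ages and the interaction used the processed signal intensity of the deposited scanner files, as log2 minus each array's 75th percentile, averaged over the probes of each table row (all 157 member rows matched within 0.002 log2), without spots flagged as outliers. Tests were limma (3.58.1, R 4.3.3) lmFit and eBayes over all rows, two-sided, Benjamini-Hochberg adjusted p under 0.05, checked on simulated data. The 21-week male table columns name only the group. Members and lists were chosen with earlier results of these data known. The genes named were those on a set list, the highest and lowest in level, the smallest sex and interaction p, the largest age changes and the best and least correlated; others were named after their values were seen, and some genes that met the rule are not reported here. Other settings were quantile, normexp (offset 50), raw signal, another scaling, filters, slides, the replicate block and arrays left out.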

Additional observations from a re-analysis of the deposited data

Results flagged for a closer look

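Among 133 sets of 5 hearts examined for the named genes, 7 held 1 heart far from the other 4 (Dixon's criterion); chance alone marks about 1 in 20. All values are rebuilt log2 levels. Rps27 had its lowest 8-week female at 6.39, where the next was at 7.21, and its lowest 78-week male at 6.24, where the next was at 7.24. Rpl22 had its highest 8-week male at 5.24, where the next was at 5.07, and its lowest 78-week male at 4.39, where the next was at 4.88. Rpl3 had its lowest 78-week male at 3.09 (next 3.33), and this was replicate 3, 1 of the 2 hearts at odds with their sex label. Rpsa had its highest 78-week female at 5.20 (next 4.43). Rps6 had its highest 78-week male at 9.61 (next 9.15).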

How the results depend on the processing

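The counts of calls from 21 minus 8 weeks and 78 minus 21 weeks kept most calls in 1 direction but not their number. From 8 to 21 weeks 132 of 157 member rows passed in all (all rows 49.3%). Under quantile normalization 71 passed (65 higher, 6 lower, all rows 43.9%). With normexp 21 passed (all rows 15.7%) and in females alone 12 (all rows 12.7%). From 8 to 78 weeks 27 passed (all rows 14.8%), and 41 under quantile normalization (25 higher, 16 lower, all rows 16.5%). With normexp 13 passed (all rows 4.01%), in females alone 1 (4.05%), in males alone 6 (6.40%) and within the slide of both ages 0 (0%). From 21 to 78 weeks 89 passed (all rows 43.5%), and 64 under quantile normalization (11 higher, 53 lower, all rows 43.9%). With normexp 2 passed (all rows 5.64%) and in females alone 25 (all rows 15.2%). Under quantile normalization, with normexp and in females alone, members passed about as often as all rows or less often in this comparison and the first. Leaving out single arrays gave 121 to 138, 21 to 41 (41 without male replicate 2 of 21 weeks) and 86 to 101 calls, and 0 to 0 in the sex comparisons. Coordination fell to 0.0284 at 8 weeks and 0.486 at 21 weeks under quantile normalization. The large minus small subunit differences moved by less than 1 SD from the reported values in every setting run. The cause of these changes was not tested. Single genes turned sign from 8 to 21 weeks under quantile normalization (Rpl22 -0.00464, Rpl26 -0.0084, Rpl36al -0.0666, Rpl3l -0.0486, Rpl7 -0.0229, Rps16 -0.0114) and with normexp (Rpl13 -0.024, Rpl22 -0.174, Rpl26 -0.139, Rpl36al -0.108, Rpl3 -0.143, Rpl3l -0.0238, Rps25 -0.155, Rps4x -0.00162), and from 21 to 78 weeks under quantile normalization (Rpl13a 0.0116, Rpl26 0.114, Rpl36al 0.131). Females and males of 1 replicate number shared a slide; their deviations correlated at -0.10 to 0.30 over all rows (-0.41 to 0.47 over member rows), not above 0.1 in every pair, so the number was not taken as a pairing, and with the replicate block 129, 26 and 89 rows passed between ages and 0 between sexes and in the interaction. The 3 weak arrays and the spots flagged as outliers were left out, or put back, after seeing the data. Signal over background limits the dim Rps26 and the reverse rows, and saturation limits Rplp1, Rps23, Rps6 and Rpl3l.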
